A study of Mus musculus with 14 samples.

Results

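The genes described here are nuclear genes whose products build the respiratory chain of mitochondria. They were taken from the expression table by symbol, as the rows that begin with Ndufa, Ndufb, Ndufc, Ndufs, Ndufv, Uqcr or Atp5, the rows that begin with Cox4, Cox5, Cox6, Cox7 or Cox8, and Sdha, Sdhb, Sdhc, Sdhd, Cyc1 and Cycs. This rule uses no measured value and took 89 of 13180 genes. Structural subunits account for 78 of them, with 36 in complex I, 4 in complex II, 9 in complex III, 14 in complex IV and 15 in complex V. Cycs encodes cytochrome c. The other 10 came with the prefixes and are no structural subunits: the complex I assembly factors Ndufaf1 to Ndufaf6, the Ndufa4 paralog Ndufa4l2, the supercomplex factor Cox7a2l, and Atp5s and Atp5sl. Ndufa4 was counted in complex IV, where its protein is now placed.

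The study sequenced poly(A) RNA from 4 mouse cell populations and made a single library per population. Oct4-GFP-ESC is a line of embryonic stem cells with a GFP reporter of Oct4, kept in serum medium with 10 ng/ml LIF on fibroblast feeder cells that had been treated with mitomycin C. Oct4-GFP-H-ESC is the part of it that showed high GFP in a sort. The same cells were differentiated towards neural cells in N2B27 medium and sorted at day 8. The GFP-negative fraction is NPC(GFP-), and the GFP-positive fraction, which was then grown in embryonic stem cell medium, is DR-ESC. All 4 populations come from the reporter line, and the labels give no strain, clone or further allele, and no LIF dose or feeders for DR-ESC after the sort. In bulk RNA, fewer cells of a type and less RNA per cell cannot be told apart.

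Values are FPKM, reads per transcript length and library size, so that levels of different genes can be set side by side. Values of 4 libraries are given in the order Oct4-GFP-ESC, Oct4-GFP-H-ESC, DR-ESC and NPC(GFP-), called the library order below. Differences are log2((FPKM + 1) ratio) over genes that reached 1 FPKM in one of the libraries compared, and a gene counts as higher or lower from 2-fold on. With 1 library per population there is no replicate error and no test, and read depth is unknown. The summed FPKM of all genes was 687303, 437605, 398522 and 345804 in the library order, so a gene at an equal share of the RNA has a lower FPKM in each later library. Markers of pluripotent cells, 10 of 10 in the table, summed to 4379, 2875, 2165 and 125 FPKM, and markers of neural progenitors, 10 of 10, to 362, 232, 148 and 1371 FPKM. The largest part of each neural sum was Vim (328, 207, 52.0 and 643 FPKM), which fibroblasts also express. By gene, 6 of 9 neural markers were at least 2-fold higher in DR-ESC against Oct4-GFP-ESC and 1 lower (median 1.70), where 2.95% and 12.2% of all genes were, and 7 of 9 against Oct4-GFP-H-ESC and 1 lower (median 1.64), where 3.65% and 3.91% were. Their part in the values of respiratory chain genes in DR-ESC was not tested. Fibroblast markers, 10 of 12 in the table, summed to 369, 326, 11.1 and 20.4 FPKM, with S100a4 listed at 0 in DR-ESC and NPC(GFP-). Fibroblast markers were thus far higher in the first 2 libraries than in the other 2, and its part in the values of respiratory chain genes was not tested.

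The respiratory chain passes electrons from NADH (complex I) and succinate (complex II) through ubiquinone to complex III, from there through cytochrome c to complex IV, and on to oxygen. Complexes I, III and IV pump protons, and complex V, the ATP synthase, uses the gradient to make ATP. A few subunits of every complex except II are encoded by mitochondrial DNA, and the nuclear genes described here supply the rest. Pluripotent cells are known for a high rate of glycolysis, and the use of oxidative phosphorylation changes as they differentiate. The 13 mitochondrially encoded subunits were not analysed here.

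Respiratory chain genes were among the most abundant RNAs of every library. In the library order their median was 159, 107, 84.4 and 72.6 FPKM, and 70, 70, 68 and 69 of the 89 lay in the top 10% of all genes. Together they made up 3.04, 2.88, 2.67 and 2.53% of all FPKM. The range was wide, from Atp5b, the catalytic beta subunit of ATP synthase (1239.9, 805, 722 and 463 FPKM), down to Cox4i2, the isoform of subunit 4 known from lung (1.32, 1.27, 0.235 and 0.561 FPKM). Oct4-GFP-ESC had the highest level for 85 of the 89 genes, and NPC(GFP-) the lowest for 60, DR-ESC for 22 and Oct4-GFP-H-ESC for 6.

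The 5 complexes stood at different levels, in a similar order in each library. Complex I had a median of 132, 75.4, 68.7 and 63.7 FPKM in the library order, and complex II 115, 70.5, 67.6 and 67.7. Complex III lay above both, with 289, 158, 133 and 96.8 FPKM. Complexes IV and V were highest, complex IV with 410, 253, 182 and 164 FPKM and complex V with 404, 225, 171 and 175. Each complex also held genes far from its median. The lowest complex I subunit in every library was Ndufa11 (23.0, 15.1, 10.7 and 8.30 FPKM), and Uqcrfs1, the Rieske iron-sulfur protein, was the lowest of complex III in every library (65.6, 38.9, 39.6 and 41.0 FPKM). Of the summed FPKM of the 78 subunits, complex I took 25.4, 25.2, 26.2 and 28.7%, complex II 2.20, 2.26, 2.67 and 3.13%, and complex V 32.2, 31.6, 31.4 and 32.6%. Complex III took 11.1, 10.9, 10.2 and 9.46%, and complex IV 29.1, 30.0, 29.5 and 26.1%. These shares do not change when all genes of a library are scaled by a common factor, but a scaling that varies with abundance could change them. As deposited, NPC(GFP-) had the lowest share for complexes III and IV and the highest for complexes I, II and V.

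**Figure D1:**
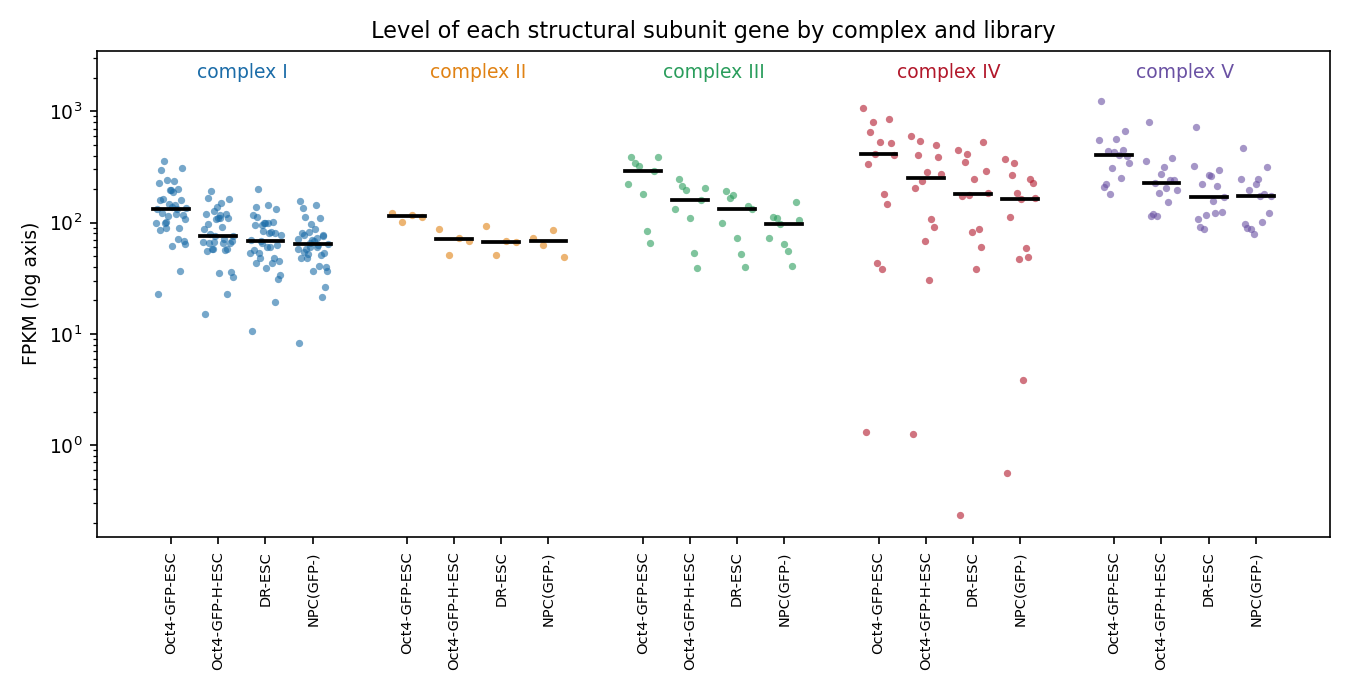
Level in FPKM (log axis) of each of the 78 structural subunit genes, by complex and library; each point is 1 gene and the bar is the median. Medians step down from Oct4-GFP-ESC to the other libraries in every complex (complex I from 132 to 63.7 FPKM, complex IV from 410 to 164), with Cox4i2 and, in NPC(GFP-), Cox7a1 far below the other complex IV genes.

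Nuclear respiratory genes are classic targets of NRF1, a transcription factor with a palindrome-like GC-rich site, of GABPA (also called NRF-2), an ETS factor, and of YY1. RefSeq promoter windows (250 bases before to 50 after a start, GRCm38.p6) were at hand for 74 of the 89 genes. The NRF1 motif, searched on both strands, is the 10-base run in capitals of the windows printed here, with any base in its sixth place. It stood in the window of 19 (25.7%), against 11.3% of 9222 genes of the expression table and 5.19% of all 27025 genes with a window. The GABPA letters CCGGAAG stood in 17 (23%), against 19.2% and 9.93%, and the YY1 motif, searched as 1 fixed run of 11 bases, in 5 (6.76%), against 1.69% and 0.755%. Matches of different motifs did not overlap in these genes, and a match is a description, not a binding site. By complex, the NRF1 motif was found for 7 of 32 genes of complex I, 2 of 3 of complex II, 1 of 5 of complex III, 1 of 11 of complex IV and 6 of 14 of complex V. Windows of 4 genes with NRF1 letters before the start are shown, 1 each from complexes I, II, IV and V. Capitals mark NRF1 letters, and near the end of the Cox6a1 window the GABPA letters on the other strand. The last base printed is the one before the start. The windows lie at chr16:37654369-37654568 (Ndufb4), chr13:74350241-74350316 (Sdha, up to the neighbouring gene Ccdc127), chr5:115348959-115349158 (Cox6a1) and chr5:108434400-108434599 (Atp5k, where the noncoding gene Gm34319 overlaps), all on the minus strand.
Ndufb4: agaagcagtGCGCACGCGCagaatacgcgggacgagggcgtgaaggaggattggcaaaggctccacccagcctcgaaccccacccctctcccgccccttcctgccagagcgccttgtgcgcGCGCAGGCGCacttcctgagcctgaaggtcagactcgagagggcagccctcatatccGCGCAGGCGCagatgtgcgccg
Sdha: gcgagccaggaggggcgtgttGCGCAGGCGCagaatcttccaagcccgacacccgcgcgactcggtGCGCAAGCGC
Cox6a1: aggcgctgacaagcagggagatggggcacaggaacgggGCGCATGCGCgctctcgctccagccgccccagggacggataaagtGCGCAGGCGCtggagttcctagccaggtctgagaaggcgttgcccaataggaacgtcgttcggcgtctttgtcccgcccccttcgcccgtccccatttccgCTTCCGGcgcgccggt
Atp5k: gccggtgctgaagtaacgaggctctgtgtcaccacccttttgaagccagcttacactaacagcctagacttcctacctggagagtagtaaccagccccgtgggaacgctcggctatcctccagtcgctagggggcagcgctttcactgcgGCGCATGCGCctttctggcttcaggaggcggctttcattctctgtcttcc

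Genes with and without NRF1 letters had FPKM medians close to each other except in DR-ESC. Among subunits, 17 with the letters had a median of 196, 111, 108 and 76.8 FPKM in the library order, and 48 without had 180, 112, 87.6 and 75.4. The log2 ratios of DR-ESC did not part in that way. Against Oct4-GFP-ESC their medians were -0.98 with and -0.93 without the letters, and against Oct4-GFP-H-ESC -0.25 and -0.23. The groups with and without NRF1 letters also differ in complex, as given above. The 16 with GABPA letters had a median of 317, 181, 132 and 116 FPKM against 162, 108, 86.8 and 71.3 for 49 without. GABPA letters stood in 4 of 32 genes of complex I, 2 of 3 of complex II and 2 of 5 of complex III. They stood in 3 of 11 of complex IV and 5 of 14 of complex V, so the groups differ in complex, and complexes differ in level. Ndufb4, an accessory subunit of complex I whose printed window holds 3 NRF1 matches, had 196, 111, 99.97 and 69.1 FPKM. Atp5k, a small membrane subunit of ATP synthase with 1 match in the printed window, had 662, 378, 299 and 315 FPKM.

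The comparison of DR-ESC with Oct4-GFP-ESC sets the cells still GFP-positive after neural differentiation against the starting line. Respiratory chain genes were lower in DR-ESC almost throughout, by a median log2 ratio of -0.93. Below 0 lay 86 of 89 genes, and 31 were lower by at least 2-fold, where over all 12260 genes 12.2% were. A single gene, Ndufa4l2, was higher by at least 2-fold, against 2.95% of all genes. The median of all genes was -0.29, but abundant genes had lower ratios as a rule. The 590 other genes at or above 98.7 FPKM, the level of the middle respiratory chain gene by mean log2(FPKM + 1), had a median of -0.94. As a set these 590 are more abundant than the 89, many of which lie below that level, here and in the comparisons below. With the trend of the ratio with abundance removed, the median of the respiratory chain genes was -0.11, 0 were lower and 2 higher (Ndufa4l2 and the Cox6b2 row), where 4.56% and 4.71% of all genes were. The lower level of these genes in DR-ESC was thus about as large as that of other RNAs of like abundance.

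The complexes differed little in that comparison. Their medians were -0.89 for complex I, -0.76 for complex II, -1.03 for complex III, -0.95 for complex IV and -1.04 for complex V, a spread of 0.28 that was 0.11 with the trend removed. The lowest ratio was that of Atp5l, a membrane subunit of ATP synthase near the dimer interface, with 393, 241, 124 and 122 FPKM in the library order and a log2 ratio of -1.66. The low level of Atp5l was common to DR-ESC and NPC(GFP-). Uqcrq, a small subunit of complex III, had 390.3, 206, 133 and 105 FPKM (-1.54). Ndufa5, an accessory subunit of complex I, had 122, 65.2, 43.3 and 54.4 FPKM (-1.47), the lowest level being that of DR-ESC. Atp5g1, which encodes the ring-forming subunit c, had 307, 185, 117 and 79.6 FPKM (-1.39). At the other end, besides the Cox6b2 row and Cox7a1 treated below, Sdha, the flavoprotein of complex II, had 122, 88.3, 93.5 and 72.6 FPKM (-0.38), and Ndufa6, an accessory subunit of complex I, had 162, 78.9, 112 and 77.5 FPKM (-0.53). The core subunits of complex I, which carry the flavin and iron-sulfur clusters, ranged from -1.25 for Ndufv1 (109, 69.0, 45.1 and 39.9 FPKM) to -0.71 for Ndufs1 (71.9, 56.2, 43.5 and 40.8 FPKM).

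**Figure D2:**
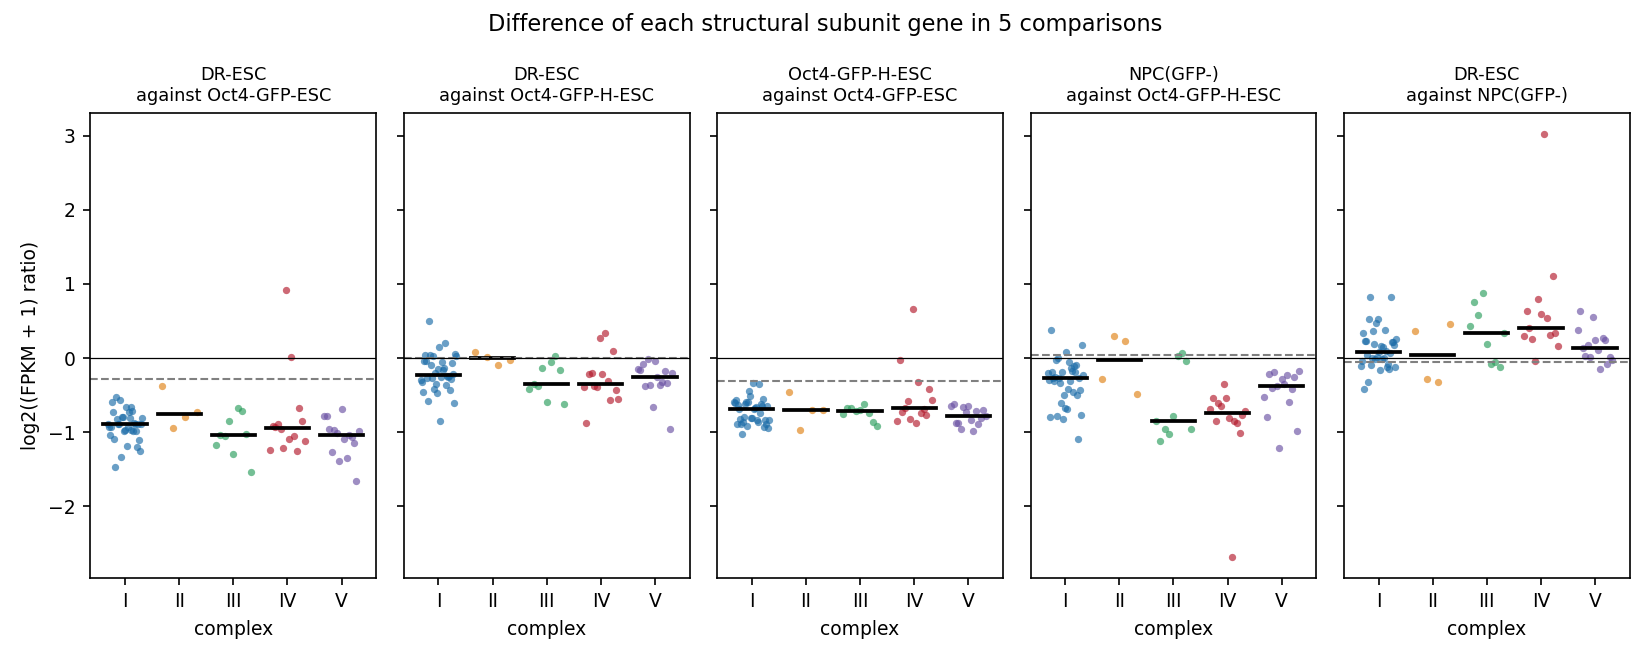
Difference of each structural subunit gene in the 5 comparisons, as log2((FPKM + 1) ratio), by complex; points are genes, black bars complex medians and the dashed line the median of all genes. Complex medians lie within 0.28 of each other in DR-ESC against Oct4-GFP-ESC and within 0.10 when the sorted Oct4-GFP-H-ESC are set against Oct4-GFP-ESC, but 0.83 apart in NPC(GFP-) against Oct4-GFP-H-ESC.

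**Figure D3:**
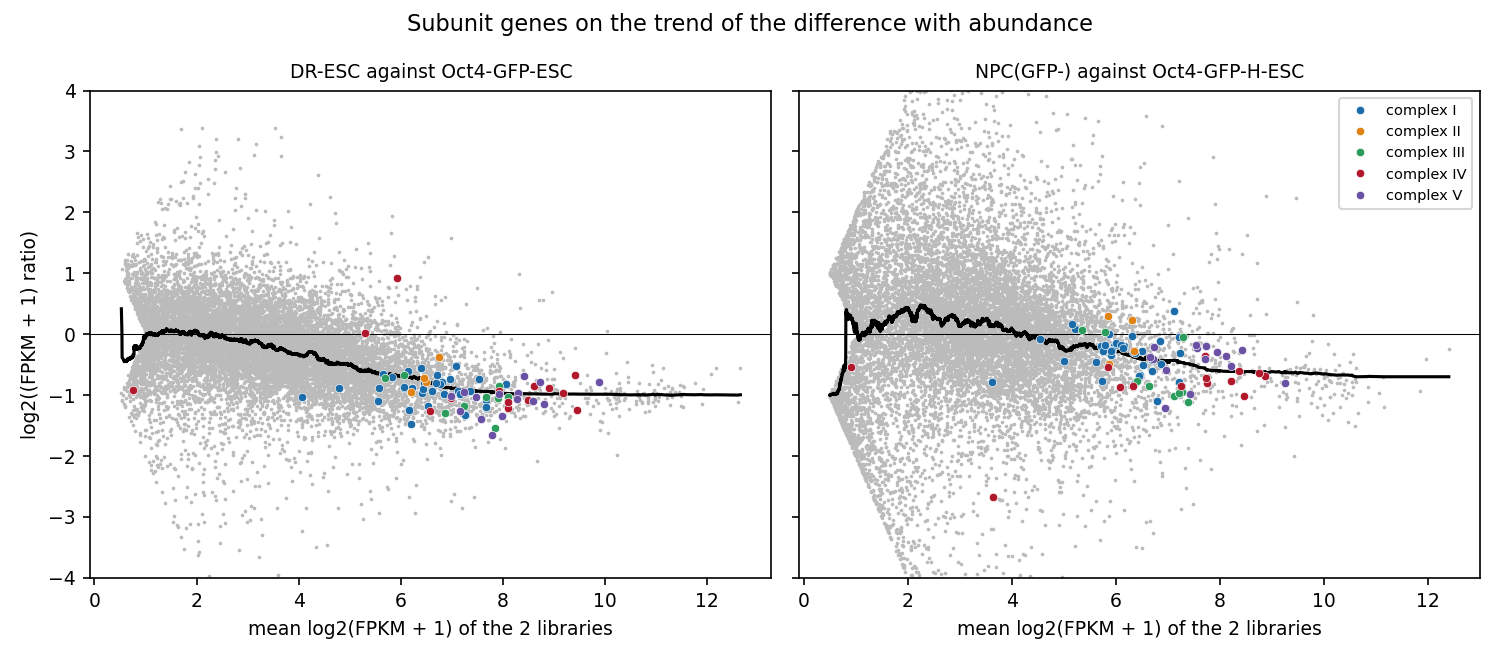
Log2((FPKM + 1) ratio) against the mean log2(FPKM + 1) of the compared libraries for all genes (grey) and structural subunits (coloured by complex), with the running median of the ratio (line). In DR-ESC against Oct4-GFP-ESC the subunits lie along the line, which reaches -0.99 in their range; in NPC(GFP-) against Oct4-GFP-H-ESC the subunits of complexes III and IV lie mostly below it.

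The comparison of Oct4-GFP-H-ESC with Oct4-GFP-ESC sets the sorted against the unsorted stem cells. Their fibroblast markers had a median log2 ratio of -0.03 as deposited and 0.38 with the abundance trend removed. Here too the respiratory chain genes were lower, with a median of -0.70 against -0.31 for all genes and -0.74 for the 590 other abundant genes. Of 89 genes 87 lay below 0, but only Ndufa6 was lower by at least 2-fold (-1.03), where 2.67% of all 12003 genes were. By that size 0 were higher, against 0.983% of all genes. The 5 complexes moved in parallel, with medians of -0.69, -0.70, -0.72, -0.68 and -0.78 from complex I to complex V. With the trend removed the median was -0.07, and 0 genes were lower and 1 higher, the Cox6b2 row, where 0.558% and 1.78% of all genes were.

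DR-ESC against Oct4-GFP-H-ESC compares the pair of reporter-sorted populations that had been in stem cell medium. The respiratory chain genes were slightly lower in DR-ESC, with a median of -0.22 where all genes had -0.0044 and the 590 other abundant genes -0.19. Below 0 lay 71 of 89 genes, but 0 were lower by at least 2-fold and only Ndufa4l2 was higher, against 3.91% and 3.65% of all 12128 genes. With the trend removed the median was -0.04, with 1 gene lower (Cox4i2) and 1 higher (Ndufa4l2), against 4.18% and 3.24% of all genes. Complex II was level, with a median of -0.00 and Sdhb, its iron-sulfur protein, at 51.6 FPKM in DR-ESC beside 51.01. Complex III had a median of -0.36 and complex IV of -0.35. Atp5l had the lowest ratio (-0.96) and, among the subunits, Ndufa6 the highest (0.50). Ndufb6, an accessory subunit of complex I, followed Atp5l and Cox4i2, with 139, 109.9 and 60.7 FPKM in Oct4-GFP-ESC, Oct4-GFP-H-ESC and DR-ESC (-0.85).

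NPC(GFP-) against Oct4-GFP-H-ESC sets the GFP-negative fraction, named neural progenitors, against the sorted stem cells. Markers of neurons, 8 of 8 in the table, summed to 170, 72.0, 57.1 and 611 FPKM in the library order. Of these, 7 were at least 2-fold higher in NPC(GFP-) and 0 lower (median 4.14), where 18.5% and 16.2% of all genes were. Their part in the values of respiratory chain genes was not tested. In this comparison the complexes parted. The median of all 89 genes was -0.39, with 78 below 0, 7 lower by at least 2-fold and 0 higher, where 16.2% and 18.5% of all 12864 genes were and the median of all genes was 0.03. The 590 other abundant genes had a median of -0.57. Complex III (-0.85) and complex IV (-0.74) were lowest, complex V (-0.38) and complex I (-0.27) came next, and complex II was level (-0.03). All 14 complex IV genes and 6 of 9 complex III genes lay below the median of complex I. With the trend removed the medians were 0.04, 0.32, -0.45, -0.26 and 0.15 from complex I to complex V, and 13 of 14 complex IV genes and 6 of 9 of complex III still lay below that of complex I. By that measure 2 of the 89 were lower (Cox7a1 and Atp5sl) and 0 higher, against 15.3% and 17% of all genes. The step between complexes is a difference within 1 pair of libraries and has no replicate check.

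As deposited, complex III split into genes that were lower in NPC(GFP-) and genes that were level. Uqcr10, a small subunit beside cytochrome c1 (chromosome 11, 4701968 to 4704344 in GRCm38.p6), had 392, 245, 191 and 113 FPKM in the library order, and a log2 ratio of -1.12 in NPC(GFP-) against Oct4-GFP-H-ESC. Uqcrb, a subunit near the ubiquinone site (chromosome 13, 66900576 to 66905350), had 324, 197, 179 and 96.8 FPKM (-1.02). Both small subunits were thus lowest in NPC(GFP-) by a wide margin. Uqcrq (-0.96) and Uqcr11 (-0.95, with 344, 215, 166 and 111 FPKM) were close behind. Cyc1, the cytochrome c1 that hands electrons to cytochrome c, had 224, 132, 99.0 and 72.9 FPKM (-0.85), and the core protein gene Uqcrc1 had 181, 111, 73.4 and 64.3 FPKM (-0.77). The partner of the latter, Uqcrc2, had 83.6, 53.8, 52.0 and 55.1 FPKM (0.03). Uqcrfs1 (0.07) and the hinge protein gene Uqcrh, with 289, 158, 141 and 154 FPKM (-0.04), were also level. With the abundance trend removed, these 3 lay above 0 (Uqcrh 0.43, Uqcrc2 0.29 and Uqcrfs1 0.24) and the other 6 below. The 2 core proteins are present in equal number in the complex, and their RNA ratio was closer to 1 in NPC(GFP-) than in the other libraries.

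In complex IV every gene was lower in NPC(GFP-) than in Oct4-GFP-H-ESC as deposited, from Cox6b1 (-0.35) to Cox7a1 (-2.68). Cox7c, a small membrane subunit (chromosome 13, 86044798 to 86046795), had 855, 501, 534 and 247 FPKM (-1.01) and was the only structural subunit besides Cox7a1 that was at least 2-fold above NPC(GFP-) in DR-ESC. Cox4i1, the main isoform of subunit 4, had 1069, 594, 453 and 370 FPKM (-0.68). Cox5a, whose product faces the matrix, had 335, 203, 175 and 113 FPKM (-0.84), and Cox5b had 653, 408, 353 and 267 FPKM (-0.61). The order of the libraries was the same in these 3 genes. Cycs, the cytochrome c that feeds complex IV and also serves in apoptosis, had 53.2, 32.9, 21.3 and 19.96 FPKM (-0.69). With the abundance trend removed, 12 of the 14 complex IV genes lay below 0, and Cox6b1 had 0.21.

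Complexes I, II and V were nearer to level in NPC(GFP-), with exceptions. Ndufs6, an accessory zinc-binding subunit of complex I (chromosome 13, 73319876 to 73328482), had 308, 161, 133 and 75.01 FPKM (-1.10). Ndufa12, another accessory subunit of complex I (chromosome 10, 94199035 to 94221440), went the other way, with 225, 121, 118 and 157 FPKM, and had the highest ratio of all 89 genes (0.38). NPC(GFP-) had more Ndufa12 than both sorted stem cell populations, and less than Oct4-GFP-ESC. The core subunits of complex I ran from -0.77 (Ndufv1) to 0.17 (Ndufv2, with 63.9, 32.7, 34.0 and 37.0 FPKM). In complex II, Sdhb (100.4, 51.01, 51.6 and 62.8 FPKM) and the membrane anchor gene Sdhc (118, 72.5, 67.8 and 85.0 FPKM) were higher by 0.29 and 0.23 on the log2 scale. The second anchor gene, Sdhd (112, 68.6, 67.4 and 48.6 FPKM), had -0.49. In complex V, Atp5g1 (-1.21), Atp5l (-0.98) and Atp5b (-0.80) were lowest, and the other 12 lay between -0.59 and -0.18. The 7 genes lower by at least 2-fold were Cox7a1, Atp5sl, Atp5g1, Uqcr10, Ndufs6, Uqcrb and Cox7c.

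**Figure D4:**
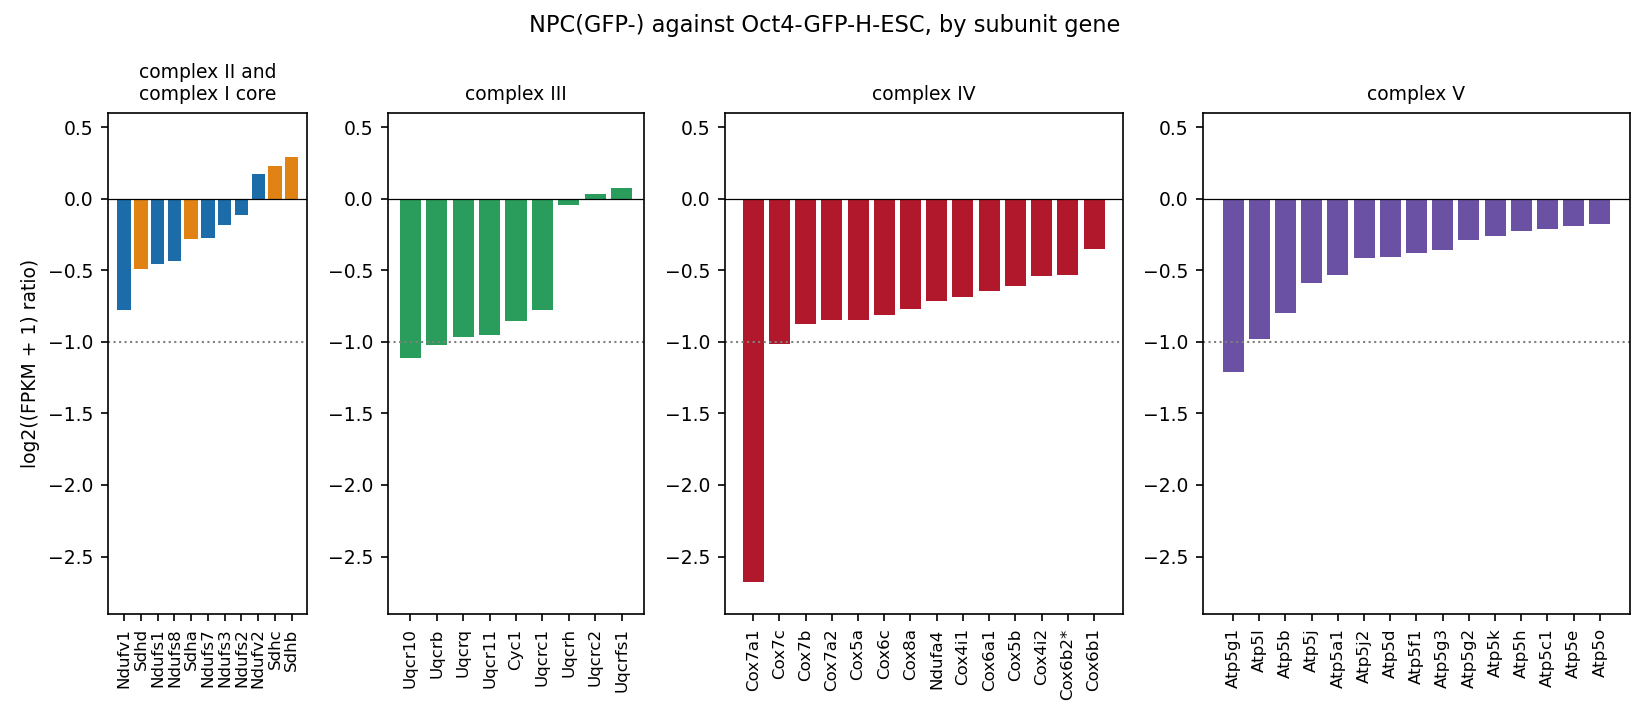
Log2((FPKM + 1) ratio) of NPC(GFP-) against Oct4-GFP-H-ESC for the genes of complex II (orange) with the core of complex I (blue), and for complexes III, IV and V; the dotted line marks 2-fold lower and the asterisk the Cox6b2 row merged with Fam71e2. Cox7a1 stands at -2.68, every complex IV gene is below 0, and complex III falls into 6 genes at or below -0.77 and 3 near 0.

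DR-ESC against NPC(GFP-) compares the GFP-positive with the GFP-negative cells of the same differentiation. DR-ESC were also grown in embryonic stem cell medium after the sort, so GFP state and that culture cannot be told apart. Respiratory chain genes were somewhat higher in DR-ESC, with a median of 0.17 over 88 genes where all genes had -0.05 and the 590 other abundant genes 0.39. By at least 2-fold 4 were higher (Cox7a1, Ndufa4l2, Cox7c and Atp5sl) and 0 lower, where 11.6% and 14.2% of all 12649 genes were. Complexes III (0.34) and IV (0.40) had the highest medians, above those of complexes I (0.09), II (0.04) and V (0.13). With the trend removed the median was 0.02, 3 were higher and 0 lower, against 11.6% and 13.4% of all genes. With the sums of FPKM made equal, it was -0.03. This comparison shares a library with each of the others that involve DR-ESC or NPC(GFP-).

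The largest differences were between genes that encode alternative forms of a single subunit. Cox7a1, the form of subunit 7A known from heart and skeletal muscle (chromosome 7, 30184171 to 30186030), had 38.3, 30.3, 38.7 and 3.89 FPKM in the library order. It stood at like levels in the 3 stem cell libraries and far lower in NPC(GFP-), a log2 ratio of 3.02 for DR-ESC against NPC(GFP-). The widely expressed Cox7a2 had 181, 108, 86.8 and 59.3 FPKM. Cox7a1 therefore made up 17.5, 22.0, 30.8 and 6.16% of the RNA of subunit 7A, the highest share being that of DR-ESC. Markers of muscle and heart, 5 of 10 in the table, summed to 27.1, 18.9, 12.2 and 2.30 FPKM, and they did not run one way. Des, the largest of them in the stem cell libraries, had 15.6 FPKM in Oct4-GFP-ESC, 8.76 FPKM in DR-ESC and only 0.325 FPKM in NPC(GFP-), while Myh7 (0.302, 0.374, 0.359 and 1.26 FPKM) was highest in NPC(GFP-). Fibroblast markers summed to 369, 326, 11.1 and 20.4 FPKM, and their part in the level of Cox7a1 was not tested. The 200 bases before the start of Cox7a1 (chr7:30183971-30184170, plus strand), which hold none of the NRF1, GABPA or YY1 letters, were as follows.
Cox7a1: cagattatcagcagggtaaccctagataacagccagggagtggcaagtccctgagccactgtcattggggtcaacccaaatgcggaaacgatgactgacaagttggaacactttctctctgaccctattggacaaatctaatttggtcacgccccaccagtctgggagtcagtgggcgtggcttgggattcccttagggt

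The row that holds the second form of subunit 6B was highest in DR-ESC, where the general form was lowest. Cox6b2, the form known from testis, shares a row of the table with Fam71e2, so the value may belong to either gene. On chromosome 7 of GRCm38.p6, Cox6b2 spans 4751792 to 4753094 and Fam71e2 4753226 to 4771363, with 131 bases between them. The merged row had 43.2, 68.6, 82.7 and 47.1 FPKM, and its level in DR-ESC was the highest of the 4. It was one of 3 respiratory chain rows above 0 in DR-ESC against Oct4-GFP-ESC (0.92, and 1.60 with the trend removed). Cox6b1, the general form, had 417, 235, 179 and 184 FPKM. The merged row thus took 9.38, 22.6, 31.7 and 20.4% of the summed FPKM of this row and Cox6b1. How much of that is Cox6b2 is unknown, so these are no shares of subunit 6B. The general form has GABPA letters (capitals, other strand) before its start at chr7:30626115-30626314, and the stretch between Cox6b2 and Fam71e2 at chr7:4753095-4753225 has none of the letters searched. Both are on the minus strand.
Cox6b1: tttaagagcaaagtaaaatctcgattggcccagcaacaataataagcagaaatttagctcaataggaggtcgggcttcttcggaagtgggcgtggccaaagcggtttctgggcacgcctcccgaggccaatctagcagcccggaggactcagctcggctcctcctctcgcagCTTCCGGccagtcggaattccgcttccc
Cox6b2: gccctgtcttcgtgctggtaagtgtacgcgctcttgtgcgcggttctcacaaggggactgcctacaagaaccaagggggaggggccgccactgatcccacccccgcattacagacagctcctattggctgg

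Cytochrome c also has a testis form, Cyct, which the rule does not take and which is given here because it pairs with Cycs. Cyct had 11.2, 15.2, 30.3 and 0.159 FPKM. In DR-ESC it stood above Cycs (21.3 FPKM), while in the other 3 libraries it stood below. Slc25a31, the adenine nucleotide carrier known from testis, stood at 0.524, 1.92 and 2.05 FPKM in the stem cell libraries, and NPC(GFP-) lists it at 0. These 2 were the only ones of 7 testis form genes looked for that had a row of their own in the table.

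Ndufa4l2 (chromosome 10, 127509274 to 127517154), a paralog of Ndufa4 known as a target of the hypoxia factor HIF-1, had the largest ratio of the 89 genes in DR-ESC against either stem cell library, with 2.11, 1.21, 13.6 and 0.884 FPKM. Its log2 ratio in DR-ESC was 2.96 to NPC(GFP-), 2.73 to Oct4-GFP-H-ESC and 2.24 to the unsorted line. Ndufa4 itself had 402, 271, 185 and 165 FPKM, so the paralog reached 6.88% of the summed FPKM of both in DR-ESC and at most 0.534% elsewhere. Cox4i2, the other form known to respond to oxygen, was very low in each library (1.32, 1.27, 0.235 and 0.561 FPKM). A response to oxygen was not tested.

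The c-ring of ATP synthase is encoded by Atp5g1, Atp5g2 and Atp5g3, which make the same mature protein. Atp5g2 had 430, 273, 266 and 224 FPKM and Atp5g3 562, 315, 264 and 246. Atp5g1 made up 23.6, 24.0, 18.1 and 14.5% of the 3, so its share was lower in DR-ESC and NPC(GFP-) than in the other libraries, and the summed level was 1299, 773, 647 and 549 FPKM. Many respiratory chain genes have processed pseudogenes, and reads shared with them or between like genes may be split, so the level of any single gene carries that doubt.

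**Figure D5:**
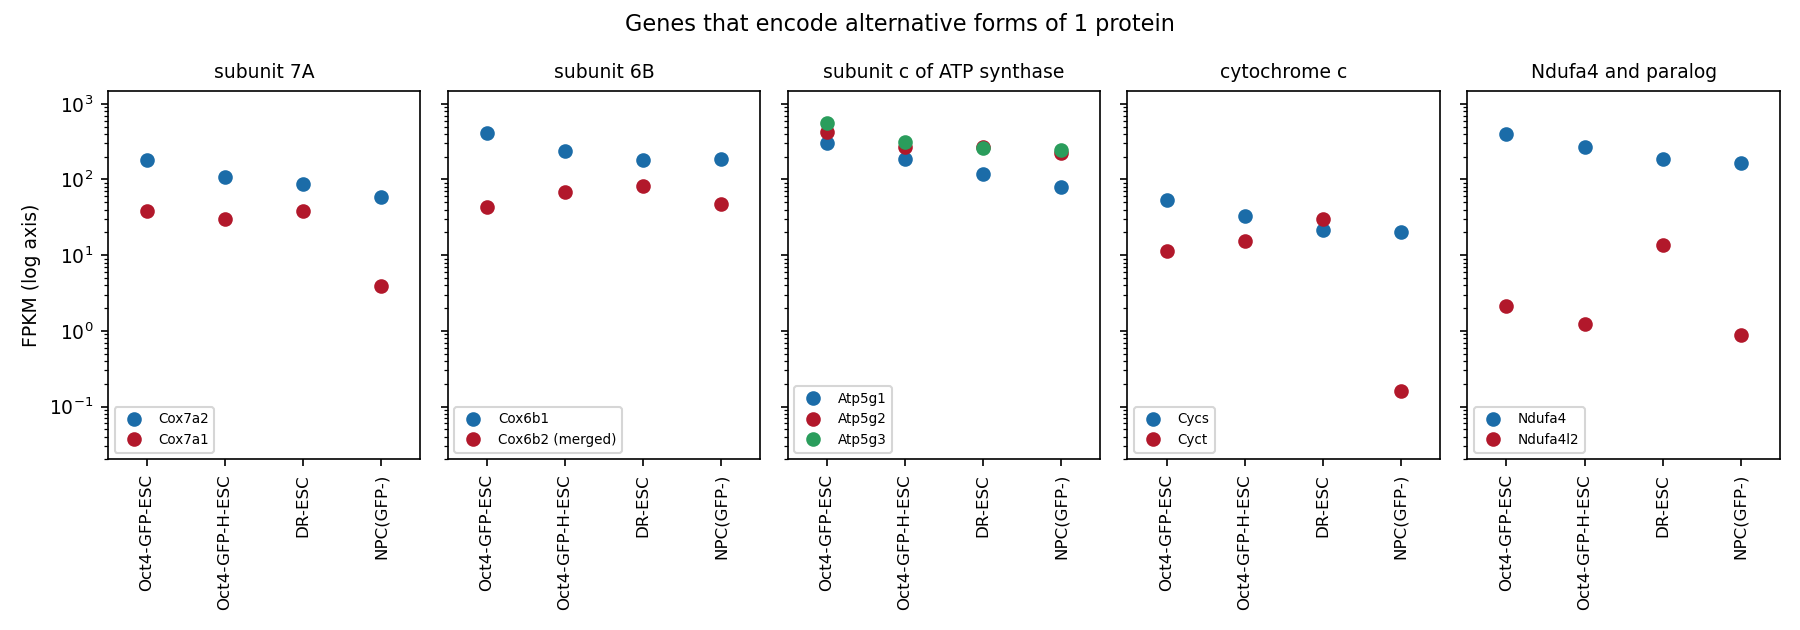
FPKM (log axis) in the 4 libraries of genes that encode alternative forms of a protein; each point is 1 library. Cox7a1 and Cyct are at 3.89 and 0.159 FPKM in NPC(GFP-), Ndufa4l2 reaches 13.6 FPKM in DR-ESC alone, and Atp5g1 parts from Atp5g2 and Atp5g3 in DR-ESC and NPC(GFP-). Cyct, which is no member by symbol, is drawn for the pair.

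The genes around the respiratory chain were looked at as lists. Of 17 complex I assembly factors, 7 of them among the 89 genes, 3 were lower and 0 higher in DR-ESC against Oct4-GFP-ESC (median -0.77), and 1 was lower and 0 higher in NPC(GFP-) against Oct4-GFP-H-ESC (median -0.36). Of all genes, 12.2% were lower and 2.95% higher in the first of these comparisons, and 16.2% and 18.5% in the second, so these counts lie near or below the background. Of 32 assembly factors of complexes II to V in the table, 7 were lower in the first of these comparisons (median -0.61), and 2 were lower and 2 higher in the second (median -0.23). With the abundance trend removed, the medians were -0.51 and -0.53 for the complex I factors and -0.26 and -0.37 for the others. The copper chaperone gene Cox17 (218, 158, 128 and 52.9 FPKM) and the insertion factor gene Cox18 (18.2, 14.7, 11.4 and 5.25 FPKM) were lowest in NPC(GFP-). Cox19 (22.5, 12.3, 10.5 and 37.0 FPKM) and Cox20, listed as Fam36a (21.2, 13.7, 16.5 and 33.3 FPKM), were highest there. All 4 serve complex IV, whose subunits were lower in NPC(GFP-), so the assembly factors did not run one way.

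Of 25 genes of mitochondrial protein import, 14 were lower when DR-ESC was compared with Oct4-GFP-ESC (median -1.04) and 9 when NPC(GFP-) was compared with Oct4-GFP-H-ESC (median -0.73), with 0 higher in both, where 12.2% and 16.2% of all genes were lower. With the abundance trend removed the medians were -0.36 and -0.54. Tomm40, the channel of the outer membrane, had 242, 145, 91.9 and 49.7 FPKM. Of 17 enzymes of the TCA cycle and pyruvate dehydrogenase, which supply NADH and succinate, 3 were lower in the first of these comparisons (median -0.63), and 1 was lower and 1 higher in the second (median -0.39), and the medians were 0.05 and -0.14 with the trend removed, so the direction of the first rests on the scaling. The higher gene was Idh2, with 63.1, 35.7, 81.1 and 74.6 FPKM. Of 17 regulators of mitochondrial biogenesis and mtDNA transcription, 1 was lower in each of the same comparisons (medians -0.40 and -0.34, or -0.15 and -0.48 with the trend removed) and 0 higher, which is below the share of all genes. NRF1 itself (gene Nrf1) stood at 25.2, 22.3, 19.5 and 17.4 FPKM. In NPC(GFP-) Gabpa (20.8, 21.6, 19.2 and 11.1 FPKM) and the PGC-1-related coactivator gene Pprc1 (56.1, 44.2, 34.7 and 18.6 FPKM) were lowest.

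The 18 glycolysis enzymes had higher ratios in DR-ESC than the respiratory chain. Against Oct4-GFP-ESC their median was -0.22, with 1 higher and 1 lower, beside 2.95% and 12.2% of all genes. The respiratory chain genes had -0.93 there. Against Oct4-GFP-H-ESC the glycolysis median was 0.39, with 3 higher and 0 lower, beside 3.65% and 3.91% of all genes, where the respiratory chain genes had -0.22. Against NPC(GFP-) it was 0.96, with 8 higher and 0 lower, beside 11.6% and 14.2% of all genes, where the respiratory chain genes had 0.17. With the abundance trend removed, the glycolysis medians were 0.42, 0.42 and 0.59 in the same order. Those of the respiratory chain genes were -0.11, -0.04 and 0.02. Aldoa, an aldolase, had 1029, 552, 1072 and 290 FPKM, while Atp5b had 1239.9, 805, 722 and 463, so that Aldoa exceeded Atp5b in DR-ESC alone. That crossing was particular to Aldoa. Gapdh (5379, 2896, 3424 and 1769 FPKM) and Pkm (2310, 1430, 1631 and 845 FPKM) exceeded Atp5b in every library. Eno1 (1776, 1035, 1086 and 360 FPKM) did so in all but NPC(GFP-), and the other glycolysis enzymes in none. That the lists differ was not tested.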

How the data were processed

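The deposited table holds log2 values per gene for 4 RNA libraries. Their form fits log2(FPKM + 1), and they were turned back to FPKM. Build mm10 and the tools TopHat2 2.0.9, Bowtie 0.12.8, CASAVA 1.8, HTSeq and DESeq2 are named, without their roles, per the submitters' processing notes. Which program wrote FPKM, and whether libraries were scaled to each other, is not given in the sources used here. RNA was purified by poly(A) selection, per the labels' protocols, which state no strandedness, so reads of overlapping genes may be joined. Groups were taken from sample titles. Samples of ChIP (8) and input (2) were left out.

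The table has 13199 rows, of which 19 with symbols turned into dates were left out. Coordinates and promoter windows come from RefSeq tables of GRCm38.p6, which matched 88 of 89 genes. Ratios used a pseudocount of 1 and a minimum of 1 FPKM in either library. The abundance trend is the running median of the ratio over 401 genes in the order of mean log2(FPKM + 1). At either end of the order the window is cut and holds fewer genes, so for the most abundant genes it leans to less abundant ones. The genes named are core subunits, subunits with several genes, and the highest and lowest ratios of each comparison, and up to 4 genes of each other list. The respiratory chain genes, the lists and the abundance trend were chosen with earlier results of these data known. The tools were pandas 2.3.3, numpy 2.4.6 and matplotlib 3.10.9 under Python 3.11.15, and the ratios were tested on simulated data. Alternatives tried were pseudocounts of 0.1 and 5, no minimum or 5 FPKM, other scalings, structural subunits alone, a 1.5-fold size and the mean.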

Additional observations from a re-analysis of the deposited data

How the results depend on the processing

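Of 200 values recomputed under 12 alternatives for 5 comparisons, 147 moved by less than 0.1 on the log2 scale or by less than 1.5 times for a count, 53 moved further, and 0 changed sign from a median of at least 2-fold, a size no median here had. With 1 library per population these changes cannot be set against replicate error, and depth is unknown. No paired analysis was possible because each group has 1 library.

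In DR-ESC against Oct4-GFP-ESC, the count of lower genes (31) was 3 with the median ratio set to 0, 0 with equal sums or the trend removed, and 82 at 1.5-fold. The count of higher genes (1) was 2 under these settings and 0 among structural subunits alone. The median (-0.93) was -0.49 with the median ratio set to 0, -0.16 with equal sums, -0.11 with the trend removed, and -0.11 with the trend fitted without the respiratory chain genes, where the spread of complex medians was 0.10 (0.11 with all genes). This last setting, and the count of Ndufa4 in complex I, were chosen after seeing the data.

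For Oct4-GFP-H-ESC relative to Oct4-GFP-ESC the median (-0.70) was -0.29 with the median ratio set to 0, -0.0664 with equal sums, -0.0704 with the trend removed and -0.0737 with it fitted without the respiratory chain genes. The 1 lower gene became 0 under these scalings and with a pseudocount of 5, and 71 at 1.5-fold, and the 0 higher became 1 under these scalings and at 1.5-fold. In DR-ESC against Oct4-GFP-H-ESC the median (-0.22) was -0.0854 with equal sums and -0.0362 and -0.0361 under the trend settings. The 0 lower became 1 under the trend settings and with a pseudocount of 0.1, and 8 at 1.5-fold, and the 1 higher became 0 among structural subunits.

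In NPC(GFP-) against Oct4-GFP-H-ESC the median (-0.39) was -0.0701 with equal sums and -0.0377 and -0.0367 under the trend settings, with 2 genes lower in place of 7, and 31 lower at 1.5-fold. The spread of complex medians there moved by less than 0.1 under each alternative. In DR-ESC against NPC(GFP-) the median (0.17) was -0.0278 with equal sums and 0.0154 and 0.0234 under the trend settings. Its 4 higher genes became 2 with equal sums or among structural subunits, and 12 at 1.5-fold. Scaling thus decides the size of the common difference, and the cause of the abundance trend was not tested.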
